A study of Rattus norvegicus with 24 samples.

Results

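Podocyte genes of the rat kidney were followed through ischemia and reperfusion with 6 members: Nphs1, Podxl, Ptpro, Synpo, Cd2ap and Wt1. Their probes were chosen by gene symbol in the array's probe annotation, with no use of measured values. Of 22523 probes, 5 carried such a symbol, 1 each for Nphs1, Podxl, Ptpro, Synpo and Wt1, and no probe was paired with Cd2ap in the annotation used here. Of the 5, 4 passed the filter on dim probes, and Synpo did not. All animals were Wistar rats aged 3 months. Sham rats served as controls, and the injured rats had 20 min of ischemia of both kidneys followed by 6, 24 or 120 h of reperfusion. Cortex and medulla of each state gave 8 groups with 3 arrays each, 24 Illumina bead arrays in all. Values are normalized intensities on the log2 scale, and differences are between group means ± SE from 1 limma fit over all arrays (n = 3 per group). A difference was called where its Benjamini-Hochberg adjusted p over 14390 tested probes was under 0.05. The labels do not say that arrays of a group came from separate animals, and the p-values here rest only on how far arrays of 1 group differed, which may be technical error.

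Podocytes are the epithelial cells that wrap the capillaries of the glomerulus, the filter of the kidney. Their interlocking foot processes are bridged by the slit diaphragm, whose backbone is nephrin, encoded by Nphs1. Glomeruli lie in the cortex, and loss of slit diaphragm proteins or of foot process shape lets plasma protein into the urine. Podxl encodes podocalyxin, the sialoprotein that coats the foot processes and is made by vascular endothelium too. Ptpro encodes a receptor tyrosine phosphatase of the foot process membrane, first known as GLEPP1, and Synpo encodes synaptopodin, an actin-binding protein of foot processes. Cd2ap encodes an adaptor that links nephrin to actin, and Wt1 encodes the zinc finger transcription factor of podocyte development and maintenance.

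The start regions of 3 members are shown, since the results below turn on how unlike each other these 3 were across kidney regions: Nphs1 differed most between cortex and medulla, Ptpro followed it, and Podxl differed least. Each is 300 bases of the rat assembly GRCr8 from RefSeq, 250 before and 50 after the annotated start, read 5′ to 3′ on the gene's strand. Nphs1 lies on the + strand at chr1:94848011-94848310, Ptpro on the + strand at chr4:171895261-171895560 and Podxl on the - strand at chr4:61149082-61149381. Capitals mark 2 motifs searched on both strands, CANNTG (E box) and GGGCGG (GC box), which can overlap copies of themselves.
Nphs1: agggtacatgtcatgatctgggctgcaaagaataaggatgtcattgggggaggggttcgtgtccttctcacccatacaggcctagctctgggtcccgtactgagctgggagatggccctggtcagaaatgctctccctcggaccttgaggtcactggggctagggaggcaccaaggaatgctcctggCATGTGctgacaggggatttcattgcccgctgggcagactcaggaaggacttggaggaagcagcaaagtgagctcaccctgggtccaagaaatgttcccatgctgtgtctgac
Ptpro: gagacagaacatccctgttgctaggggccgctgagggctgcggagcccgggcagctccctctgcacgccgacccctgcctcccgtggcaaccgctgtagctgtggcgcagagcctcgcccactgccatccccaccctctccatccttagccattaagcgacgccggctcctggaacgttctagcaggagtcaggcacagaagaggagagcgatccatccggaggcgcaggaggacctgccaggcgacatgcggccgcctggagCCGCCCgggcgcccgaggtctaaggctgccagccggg
Podxl: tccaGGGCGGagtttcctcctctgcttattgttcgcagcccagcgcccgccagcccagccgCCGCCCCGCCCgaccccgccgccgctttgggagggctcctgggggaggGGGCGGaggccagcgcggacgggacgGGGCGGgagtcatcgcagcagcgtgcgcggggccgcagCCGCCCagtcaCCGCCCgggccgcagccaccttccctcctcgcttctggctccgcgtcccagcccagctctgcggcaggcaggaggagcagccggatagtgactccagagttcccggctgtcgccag
The Nphs1 window held 4 CpG pairs with 56.3% G and C, against 24 and 68.7% for Ptpro and 33 and 74.7% for Podxl. Over 33469 rat promoter windows of this length the medians were 7 CpG pairs and 51.7%. Nphs1 held 1 E box, a motif that 72.1% of all windows had. Ptpro held 1 GC box and Podxl held 7, against at least 1 in 33.1% of windows. The letters GCGTGGG, a core that WT1 and EGR1 bind, occurred in 4.33% of windows and in none of the 6 members' windows. These matches and base counts describe letters only, and their relation to the regional differences was not tested.

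Between 49.6% and 56.4% of probes were above background on each array (detection p under 0.05). The tissue labels were checked on tubule genes. Over the 4 states 10 of 11 tested proximal tubule markers were lower in medulla, with a median difference of -2.83, and 4 of 5 thick ascending limb markers were higher, with a median of 1.14. Sham medulla was uneven. The summed linear level of the 11 proximal tubule markers was 78700 on replicate 1, 30500 on replicate 2 and 49900 on replicate 3 of sham medulla. It lay between 86200 and 96600 in sham cortex and between 6840 and 29200 in injured medulla. On these markers replicates 1 and 3 of sham medulla stood apart from replicate 2 toward cortex. Replicate 3 was near replicate 2 for thick ascending limb markers (44500, 63600 and 58300 on replicates 1, 2 and 3, sham cortex 26700 to 52400). So it was for endothelial markers (6530, 13300 and 13900, sham cortex 7420 to 9330). It was nearest to cortex for distal and collecting duct markers (5190, 3010 and 9010, sham cortex 11900 to 13200). The members' differences and the list counts or medians that use sham medulla are given with and without replicates 1 and 3. Without them the median differences over the 4 states were -3.12 for proximal tubule and 1.28 for thick ascending limb markers. For proximal tubule this is no separate check of the labels, since those markers singled out the 2 arrays. Nphs1, Ptpro and Wt1 also read higher on these arrays than on replicate 2. Leaving the 2 arrays out can therefore only widen the medulla minus cortex differences of these genes that use sham medulla. Without the 2 arrays sham medulla is 1 array, which the fit assumes to vary like the other groups.

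**Figure D1:**
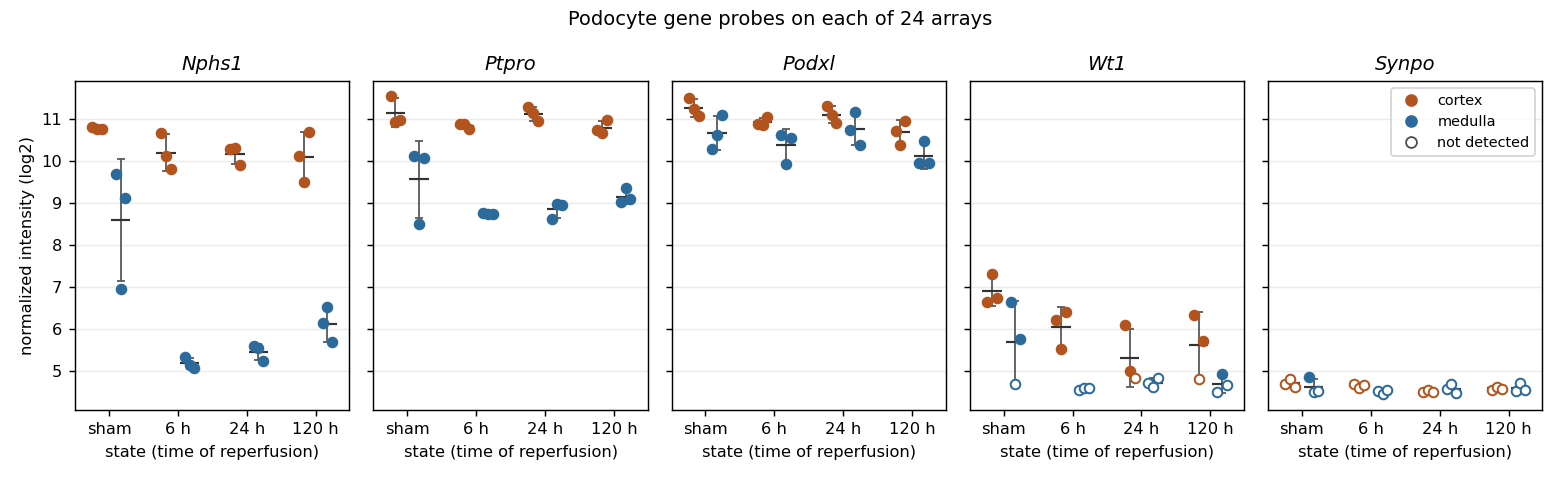
Normalized intensity (log2, vertical axis) of each measured member on each of the 24 arrays, by state (horizontal axis) and region (colour); bars give the mean ± SD of 3 arrays and open circles are arrays on which the probe was not above background. Nphs1 separates the regions most, with injured medulla between 5.09 and 6.54, and Synpo stays at the bottom of the scale.

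In medulla the slit diaphragm gene Nphs1 lay below its cortex level in every state, and far below it in injured kidneys. Ptpro lay below its own cortex level by a smaller amount. Across the 4 members and 4 states, 9 of 16 differences between medulla and cortex were called, all with medulla lower. These 9 were Nphs1 and Ptpro in all 4 states and Wt1 at 6 h. Of all tested probes 0.952% were called lower in medulla in sham kidneys, 7.77% at 6 h, 6.14% at 24 h and 3.89% at 120 h. Levels in bulk tissue cannot tell fewer podocytes from less RNA per podocyte.

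Nphs1 read 10.82, 10.77 and 10.76 on the 3 sham cortex arrays and 9.70, 6.97 and 9.13 on the sham medulla arrays. At 6 h cortex read 10.68, 10.12 and 9.81 and medulla read 5.34, 5.15 and 5.09. At 24 h the values were 10.28, 10.32 and 9.91 in cortex and 5.60, 5.55 and 5.25 in medulla. Every medulla array lay below every cortex array of its own state, as for 8.84%, 12.3%, 15.5% and 15.2% of all probes in sham, 6 h, 24 h and 120 h. At 120 h cortex read 10.13, 9.50 and 10.69 and medulla read 6.15, 6.54 and 5.70. The deposited raw intensities, with no background removed, were 881.8 to 1952.7 in 6 h cortex and 87.8 to 90.1 in 6 h medulla. Nphs1 was above background on all 24 arrays, though in 6 h medulla with a detection p of up to 0.0364.

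The difference for Nphs1 was -2.19 ± 0.45 in sham kidneys (4.55-fold lower in medulla, adjusted p = 0.0223). It was -5.01 ± 0.45 at 6 h (32.3-fold, adjusted p = 2.12e-06), -4.70 ± 0.45 at 24 h (26-fold, adjusted p = 4.66e-06) and -3.98 ± 0.45 at 120 h (15.8-fold, adjusted p = 9.05e-05). These sizes depend on how background was handled, since Nphs1 in injured medulla lay near it. With the authors' deposited log2 values the differences were -1.90, -3.42, -3.28 and -2.95 in sham, 6 h, 24 h and 120 h (3.74-, 10.7-, 9.71- and 7.71-fold, adjusted p = 0.0147, 2.56e-05, 4.65e-05 and 0.000254), all called. Without sham medulla replicates 1 and 3 the sham difference was -3.82 ± 0.38 (adjusted p = 3.41e-05). The sham call was lost without sham medulla replicate 2 (-1.37, adjusted p = 0.0843), without sham cortex replicate 2 (-2.19, adjusted p = 0.0812) and without sham cortex replicate 3 (-2.20, adjusted p = 0.0880). A limma fit of only the groups compared lost it too (-2.19, adjusted p = 0.389). The order of the group means ran from sham cortex (10.78 ± 0.03, SD, n = 3) through 6 h, 24 h and 120 h cortex (10.21 ± 0.44, 10.17 ± 0.23 and 10.11 ± 0.59) to sham medulla (8.60 ± 1.44), and then 120 h, 24 h and 6 h medulla (6.13 ± 0.42, 5.47 ± 0.19 and 5.19 ± 0.13). The arrays of the 3 injured cortex groups overlapped each other, the 120 h cortex arrays overlapped those of sham medulla, and those of 24 h medulla overlapped those of 6 h medulla.

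Ptpro, the foot process phosphatase, read 11.55, 10.93 and 10.98 in sham cortex and 10.12, 8.51 and 10.08 in sham medulla. At 6 h cortex read 10.89, 10.88 and 10.77 and medulla 8.76, 8.74 and 8.75. As for Nphs1, replicate 2 was the low array of sham medulla. At 24 h the values were 11.29, 11.14 and 10.96 in cortex and 8.63, 8.97 and 8.96 in medulla, and at 120 h 10.75, 10.67 and 10.98 against 9.02, 9.35 and 9.10. All 12 medulla arrays lay below all 12 cortex arrays, a separation that 0.389% of all probes showed in this direction. The difference was -1.59 ± 0.29 in sham kidneys (3.0-fold lower, adjusted p = 0.0116), -2.10 ± 0.29 at 6 h (4.28-fold, adjusted p = 7.08e-05), -2.28 ± 0.29 at 24 h (4.85-fold, adjusted p = 4.78e-05) and -1.64 ± 0.29 at 120 h (3.12-fold, adjusted p = 0.00156). Without sham medulla replicates 1 and 3 the sham difference was -2.65 ± 0.23 (adjusted p = 1.04e-05).

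Podxl, the podocalyxin gene, was well above background on every array and differed little between regions. Sham cortex read 11.49, 11.23 and 11.08 and sham medulla 10.29, 10.62 and 11.10. At 6 h the values were 10.88, 10.86 and 11.04 in cortex and 10.63, 9.93 and 10.56 in medulla. In contrast to Nphs1 and Ptpro, its lowest sham medulla array was replicate 1, the array highest in proximal tubule markers. At 24 h it read 11.32, 11.09 and 10.91 in cortex and 10.73, 11.16 and 10.39 in medulla, and at 120 h 10.72, 10.38 and 10.96 against 9.95, 10.49 and 9.96. The regions overlapped in 3 of 4 states. The difference was -0.59 in sham kidneys (95% interval -1.10 to -0.09, adjusted p = 0.303), -0.55 at 6 h (-1.05 to -0.05, adjusted p = 0.136), -0.34 at 24 h (-0.85 to 0.16, adjusted p = 0.431) and -0.55 at 120 h (-1.06 to -0.05, adjusted p = 0.188). Without sham medulla replicates 1 and 3 the sham difference was -0.64 ± 0.32 (adjusted p = 0.393).

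Wt1, the podocyte transcription factor, lay close to background and was detected on 10 of 12 cortex and 3 of 12 medulla arrays. Sham cortex read 6.66, 7.31 and 6.74 and sham medulla 6.64, 4.70 and 5.78. At 6 h cortex read 6.22, 5.54 and 6.42, and the medulla arrays, none above background, read 4.56, 4.61 and 4.60. The highest medulla values were those of sham replicates 1 and 3, the arrays nearest to cortex in proximal tubule markers. At 24 h cortex read 6.11, 5.0 and 4.85 and medulla 4.72, 4.63 and 4.84, and at 120 h cortex read 6.35, 4.81 and 5.73 and medulla 4.52, 4.94 and 4.67. At 6 h Wt1 was lower in medulla than in cortex (-1.47 ± 0.42, adjusted p = 0.0201). The fold was 2.17 with medulla values raised to at least the lowest signal above background. With the authors' deposited log2 values the difference was -0.65 (1.57-fold, adjusted p = 0.0254). The 6 h call was lost without 6 h cortex replicate 1 or 3 and without 6 h medulla replicate 1 or 3 (adjusted p between 0.0538 and 0.0742), and with median scaling or array weights (0.0536 and 0.0602). In sham kidneys the difference of -1.20 ± 0.42 was not called (adjusted p = 0.187). It was called without sham medulla replicate 1, the highest array of its group (-1.66, adjusted p = 0.0210). Without replicates 1 and 3 together the sham difference was -2.20 ± 0.49. Across 16 alternatives it ran from -2.20 to -0.57, with a limma adjusted p of up to 0.855.

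Synpo, the synaptopodin gene, gave almost no signal. Its probe was above background on 1 of 24 arrays, sham medulla replicate 1 at 4.86, and its group means lay between 4.52 and 4.72. It was not tested, and its readings do not show that the transcript was absent.

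**Figure D2:**
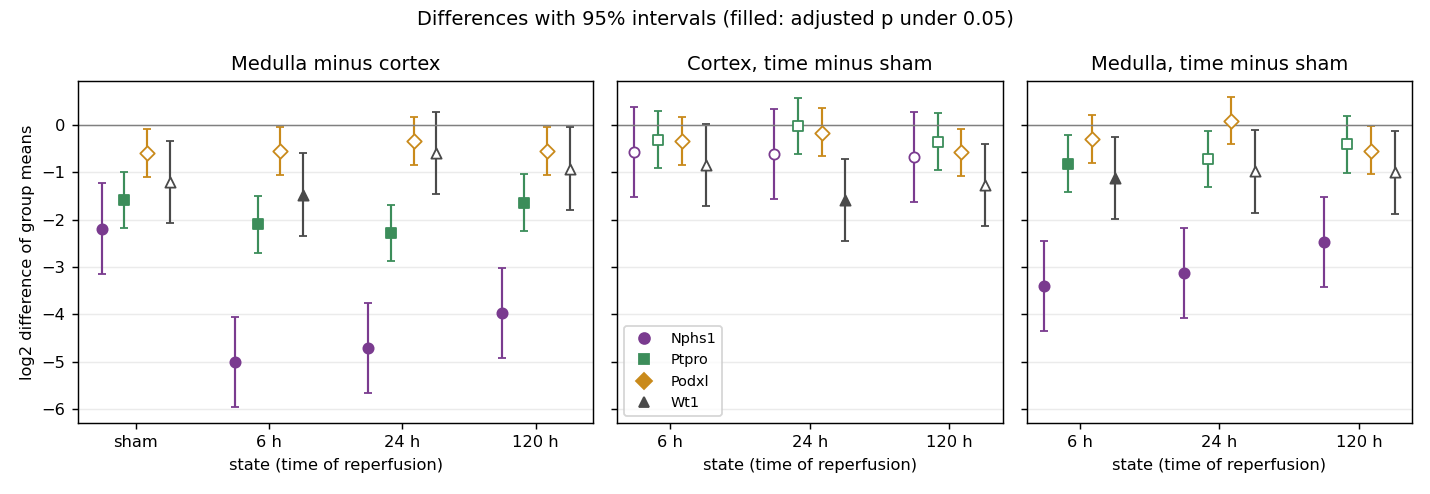
Differences of group means (log2, vertical axis) with 95% intervals for the 4 tested members, between regions at each state and against sham at each time (horizontal axes); filled symbols have an adjusted p under 0.05. Nphs1 in medulla lies below -2 in every panel position where it is called, while the Podxl symbols are open throughout.

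Against sham, Wt1 at 24 h was the 1 of 12 member differences called in cortex, and 5 of 12 were called in medulla: Nphs1 at 6, 24 and 120 h and Wt1 and Ptpro at 6 h, all lower. Of all tested probes 10.8%, 13.6% and 3.2% were called lower in cortex at 6, 24 and 120 h, and 16.6%, 15.5% and 6.88% in medulla. A call of a member therefore stood among many others. The comparisons within a region share their sham arrays.

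In cortex the Nphs1 differences from sham were -0.58, -0.62 and -0.68 ± 0.45 in order of time, and none was called (adjusted p = 0.407, 0.355 and 0.450). Each injured cortex array lay below all 3 sham cortex arrays, which spanned only 10.76 to 10.82; 15.6%, 21.8% and 14.1% of all probes had their 3 arrays below sham in the same way. A fit of only the groups compared called the 24 h difference (adjusted p = 0.0246). Wt1 in cortex fell at 24 h (-1.58 ± 0.42, 2.99-fold lower, adjusted p = 0.00826), and gave -0.84 ± 0.42 at 6 h (adjusted p = 0.165) and -1.27 ± 0.42 at 120 h (adjusted p = 0.0787). With the authors' deposited log2 values the 24 h difference was -0.74 (1.66-fold, adjusted p = 0.00805). At 24 h 2 of 3 cortex arrays were above background for Wt1. The 120 h difference was called without 120 h cortex replicate 1 (-1.63, adjusted p = 0.0446). Ptpro in cortex stayed within 0.35 of sham, at -0.31, -0.02 and -0.35 ± 0.29, and Podxl gave -0.34, -0.16 and -0.58 ± 0.24, with adjusted p between 0.175 and 0.969 for these 6. Proximal tubule markers called lower in cortex numbered 4, 3 and 1 of 11 at the 3 times, and their part in these differences was not tested.

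In medulla Nphs1 fell at all 3 times. Its difference from sham medulla was -3.40 ± 0.45 at 6 h (10.6-fold lower, adjusted p = 4.48e-05), -3.13 ± 0.45 at 24 h (8.75-fold, adjusted p = 8.48e-05) and -2.47 ± 0.45 at 120 h (5.54-fold, adjusted p = 0.00214). With the authors' deposited log2 values the differences were smaller, at -2.07, -1.96 and -1.68 (4.19-, 3.9- and 3.21-fold, adjusted p = 0.000515, 0.000772 and 0.00699). Proximal tubule markers moved with it: 11 of 11 were called lower at 6 h and at 24 h and 5 of 11 at 120 h. Without sham medulla replicates 1 and 3 the Nphs1 differences were -1.77 ± 0.38 (adjusted p = 0.00919), -1.5 ± 0.38 (adjusted p = 0.0217) and -0.84 ± 0.38 (adjusted p = 0.262), so that the 120 h call was lost. Those same markers were then called lower in 4, 3 and 0 of 11 cases. Wt1 at 6 h differed from sham medulla by -1.12 ± 0.42 (adjusted p = 0.0446). The fold was 1.70 with the 6 h values raised to at least the lowest signal above background. With the authors' deposited log2 values it was 1.42 (adjusted p = 0.0463). Without the 2 sham medulla arrays the fitted difference was -0.11. Ptpro at 6 h differed by -0.82 ± 0.29 (adjusted p = 0.0329), and without them by 0.24 ± 0.23 (adjusted p = 0.531), so the direction turned. Leaving out sham medulla replicate 1 or 3 alone or any of the 3 arrays of 6 h medulla also lost both calls, with adjusted p between 0.0661 and 0.263. Without sham medulla replicate 2, the lowest of its group, 9 of 12 were called. Podxl in medulla gave -0.29, 0.09 and -0.54 ± 0.24 (adjusted p = 0.374, 0.818 and 0.146), and without replicates 1 and 3 it gave -0.24, 0.14 and -0.49 ± 0.32 (adjusted p = 0.666, 0.834 and 0.485).

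Whether the response differed between regions was tested directly. None of 12 member differences of response was called by limma, and 3 of 12, all of Nphs1, had an unadjusted p under 0.05. For Nphs1 the medulla change minus the cortex change was -2.83 ± 0.64 at 6 h (adjusted p = 0.0865), -2.51 ± 0.64 at 24 h (adjusted p = 0.139) and -1.79 ± 0.64 at 120 h (adjusted p = 0.760). Of all tested probes 0.202%, 0.0556% and 0.0139% were called in either direction. Without sham medulla replicate 2, Nphs1 was called at all 3 times (-3.64, -3.33 and -2.61, adjusted p = 0.000589, 0.000856 and 0.0216) and Ptpro at 24 h (-1.22, adjusted p = 0.0287). With sham medulla replicates 1 and 3 left out, the Nphs1 values were -1.2, -0.88 and -0.16 ± 0.46 (adjusted p = 0.54, 0.744 and 1). Those of Ptpro, -0.51, -0.69 and -0.06 with all arrays, were then 0.55, 0.37 and 1 ± 0.28 (adjusted p = 0.688, 0.868 and 0.411), so their direction turned. Between successive times 0 of 16 member differences were called, 1 had an unadjusted p under 0.05, and 1.5% and 2.34% of probes in cortex and 1.4% and 3.91% in medulla were called from 6 to 24 h and from 24 to 120 h.

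Averages over states gave a tighter estimate of each member's regional difference, with Podxl included. Medulla minus cortex over the 4 states was -3.97 ± 0.23 for Nphs1 (adjusted p = 6.46e-10), -1.90 ± 0.14 for Ptpro (adjusted p = 1.5e-08), -1.04 ± 0.21 for Wt1 (adjusted p = 0.00061) and -0.51 ± 0.12 for Podxl (adjusted p = 0.00268). All 4 were called lower, against 15.7% of all probes. Without sham medulla replicates 1 and 3 the differences were -4.38 ± 0.15, -2.17 ± 0.09, -1.3 ± 0.19 and -0.52 ± 0.13 in the same order. For Nphs1, Ptpro and Wt1 those 2 arrays read above replicate 2, so leaving them out can only widen the difference and is no separate check. For the mean of the 3 injured times against sham, 1 of 4 was called lower in cortex (Wt1, -1.23 ± 0.34, adjusted p = 0.0119), against 13% of probes. That call was lost without sham cortex replicate 2 (-1.03, adjusted p = 0.0778). In medulla 3 of 4 were called lower, against 17.8%: Nphs1 at -3.0 ± 0.37 (adjusted p = 1.61e-05), Wt1 at -1.03 ± 0.34 (adjusted p = 0.0231) and Ptpro at -0.65 ± 0.23 (adjusted p = 0.0365). Without sham medulla replicates 1 and 3 only the Nphs1 call was left (-1.37 ± 0.34, adjusted p = 0.0256).

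**Figure D3:**
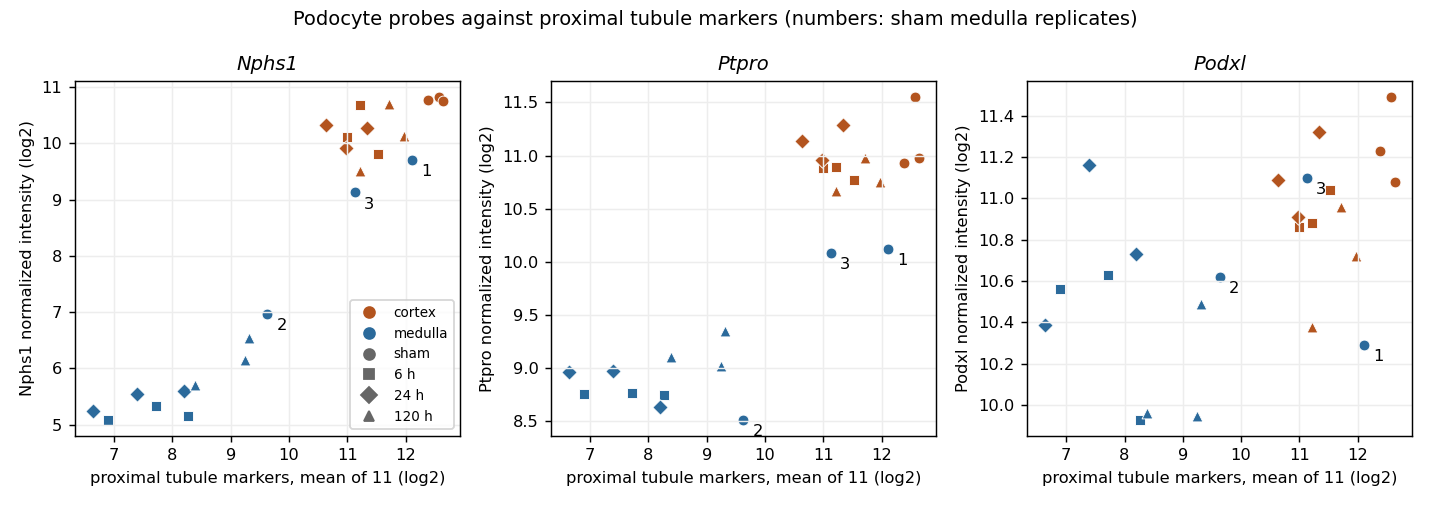
Normalized intensity (log2, vertical axes) of Nphs1, Ptpro and Podxl against the mean log2 level of 11 proximal tubule markers (horizontal axes) on each of the 24 arrays, with colour for region and shape for state; digits number the sham medulla replicates. Sham medulla replicates 1 and 3 lie close to the cortex arrays for Nphs1, and between the regions for Ptpro.

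Across the 24 arrays Nphs1 and Ptpro had a Pearson correlation of 0.959, which was 0.55 within the 12 cortex and 0.856 within the 12 medulla arrays. Podxl correlated with Nphs1 at 0.625 over all arrays, 0.659 in cortex and 0.198 in medulla. Wt1 correlated with Nphs1 at 0.791, 0.645 in cortex and 0.916 in medulla. These are descriptions; the arrays share regions, states and the uneven sham medulla group. The named genes most like Nphs1 over the 24 arrays were the organic anion transporter gene Slc22a8 (r = 0.983), Prodh2, which encodes a hydroxyproline dehydrogenase (0.983), and Epb41l3, a membrane skeleton gene (0.982). Slc22a8 went from 10.93 ± 0.34 in sham cortex to 8.28 ± 2.19 in sham medulla and 5.19 ± 0.43 in 6 h medulla. Ptpro was most like Epb41l3 (0.965), the anion exchanger gene Slc26a4 (0.964) and the potassium channel gene Kcnj12 (0.962). Podxl had looser matches, the anion exchanger gene Slc4a9 (0.801), Trim3 (0.781) and Kctd9 (0.769), and Wt1 was most like Acot12 (0.935), Hsd17b2 (0.918) and Opcml (0.916).

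None of the other tested slit diaphragm genes was called lower in medulla over the 4 states. Of 17 listed symbols 8 were tested, and over the 4 states 4 were called higher in medulla and 0 lower, with a median difference of 0.32; over all 9799 tested genes 19.3% were called higher and 17.2% lower with a median of 0.01. The list again had 4 higher and 0 lower without sham medulla replicates 1 and 3, with a median of 0.33, against 18.4% and 16.6% of all genes. The 4 were Plce1, a phospholipase C gene (0.67 ± 0.11), the scaffold gene Iqgap1 (0.66 ± 0.18), the polarity gene Pard3 (0.52 ± 0.13) and the adaptor gene Nck2 (0.42 ± 0.10), with adjusted p between 0.000103 and 0.00913. These genes act in many kinds of epithelium. Against sham, Pard3 was higher in cortex at 6 and 24 h (0.99 and 0.81 ± 0.25, adjusted p = 0.00946 and 0.0233), while Iqgap1 was lower (-1.51 and -1.34 ± 0.37, adjusted p = 0.00747 and 0.0113).

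Foot process and cytoskeleton genes split between the regions. Of 12 tested, 4 were called lower in medulla over the 4 states and 3 higher, against 17.2% and 19.3% of all genes, with a median of 0.04. Leaving out sham medulla replicates 1 and 3 gave 5 lower and 2 higher, with a median of -0.04. With all arrays the lower genes were Nes, which encodes the intermediate filament protein nestin (-1.46 ± 0.21, adjusted p = 2.23e-05), Clic5, a foot process chloride channel gene (-1.36 ± 0.17, adjusted p = 4.70e-06), the podoplanin gene Pdpn (-1.03 ± 0.28, adjusted p = 0.00703) and Pals1, a polarity gene (-0.69 ± 0.16, adjusted p = 0.00174). Dag1, the dystroglycan gene (0.77 ± 0.10), Itgb1, the integrin beta gene (0.64 ± 0.13), and Myh9, a non-muscle myosin gene (0.49 ± 0.17), were higher in medulla. Against sham at 24 h in cortex, 2 of the 12 were called lower and 1 higher, against 13.3% and 14% of all genes. The lower ones were the alpha-actinin gene Actn4 (-1.27 ± 0.24, adjusted p = 0.000669) and the ezrin gene Ezr (-0.88 ± 0.22, adjusted p = 0.00605). Nes, Pdpn and Pals1, like Plce1 above and Lamb2 below, were chosen after their values were seen, since no comparison with sham or between sham regions called them.

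Among 12 tested genes for other podocyte markers and secreted factors, 2 were called lower in injured cortex over the 3 times and 0 higher, against 12.6% and 13.1% of all genes. Vegfa, the vascular growth factor gene that podocytes and tubule cells make, had means of 9.28 ± 0.04, 7.59 ± 0.64, 7.04 ± 0.10 and 7.90 ± 0.63 in sham, 6 h, 24 h and 120 h cortex. Its cortex differences of -1.70, -2.24 and -1.38 ± 0.32 were all called (adjusted p = 0.00127, 6.08e-05 and 0.0141). It was lower in medulla too (-1.52, -1.88 and -1.36 ± 0.32, adjusted p = 0.00138, 0.000291 and 0.00913), and over the 3 times still without sham medulla replicates 1 and 3 (-1.68 ± 0.43, adjusted p = 0.0267). The other gene was Enpep, the aminopeptidase A gene of podocytes and proximal tubule, at -2.11 ± 0.52 at 6 h and -2.83 ± 0.52 at 24 h in cortex (adjusted p = 0.00766 and 0.000576). Htra1, a secreted protease gene, was lower in medulla than in cortex in all 4 states (-1.65, -2.10, -1.94 and -1.55 ± 0.38, adjusted p = 0.0374, 0.000948, 0.00209 and 0.0173). It was not called against sham in either region with all arrays. In injured medulla 3 of the 12 were called higher and 4 lower over the 3 times, against 21.2% and 17.4% of all genes. Leaving out sham medulla replicates 1 and 3 gave 3 higher and 2 lower, against 4.6% and 3.31%; of these Htra1 was 1.52 ± 0.32 higher (adjusted p = 0.0116). The 3 tested podocyte transcription factor genes had median differences of -0.12 between regions, -0.14 in injured cortex and -0.07 in injured medulla, and without sham medulla replicates 1 and 3 the median was -0.08 between regions and 0.36 in injured medulla.

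**Figure D4:**
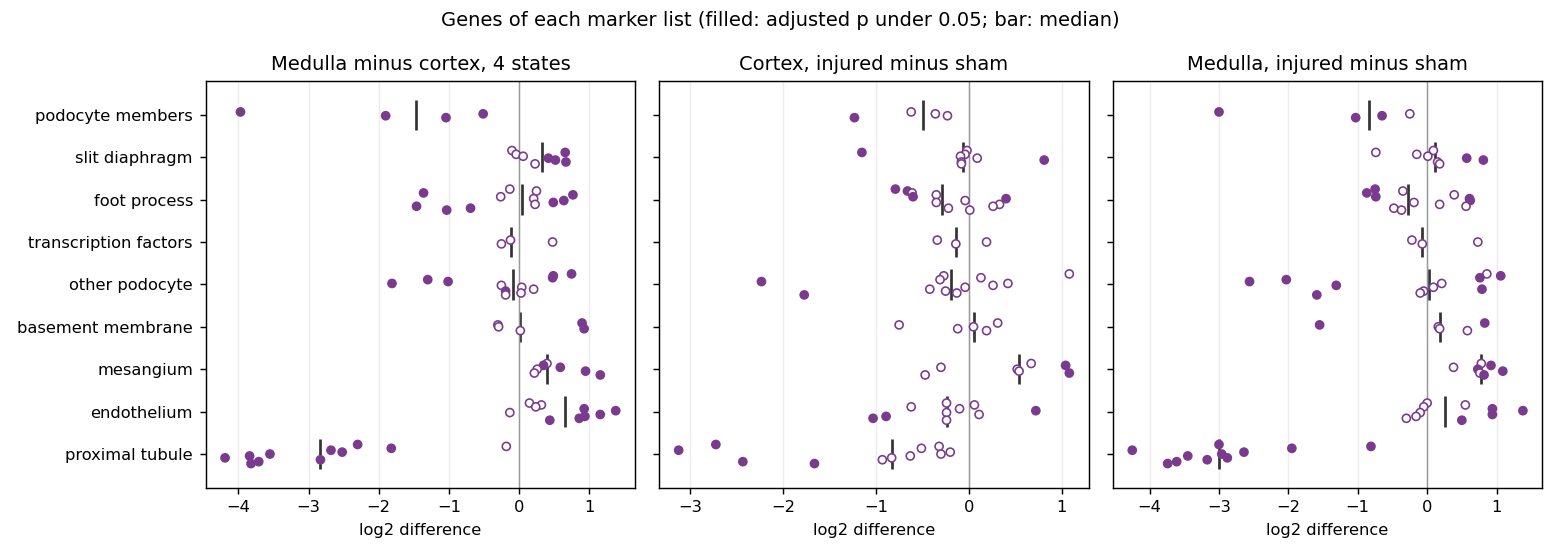
Log2 differences (horizontal axes) of each tested gene of 9 marker lists (rows) for medulla minus cortex over 4 states and for the mean of 3 injured times minus sham in each region; filled points have an adjusted p under 0.05 and bars are list medians. All 4 podocyte members lie below 0 in the left panel, while the endothelial median is 0.65 and the proximal tubule median is -2.83.

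Markers of endothelium and mesangium, the other cells of the glomerular tuft, were higher in medulla than in cortex where they were called. Of 10 tested endothelial genes 6 were called higher in medulla over the 4 states and 0 lower, against 19.3% and 17.2% of all genes. The median was 0.65, and 0.7 without sham medulla replicates 1 and 3. The higher genes included Esam, an endothelial adhesion gene (1.38 ± 0.12, adjusted p = 5.78e-08), Plvap, which marks fenestrated endothelium (1.16 ± 0.13, adjusted p = 1.11e-06), and Emcn, the endomucin gene (0.93 ± 0.11, adjusted p = 2.05e-06). Against sham, 2 of the 10 were called lower and 1 higher in cortex at 6 h, where 10.3% and 10.2% of all genes were. In cortex Tek, the angiopoietin receptor gene, was lower than sham at 6 h (-1.39 ± 0.30, adjusted p = 0.00369), and so was the transcription factor gene Sox17 (-1.07 ± 0.30, adjusted p = 0.0170), while Esam was higher (0.86 ± 0.24, adjusted p = 0.0151). In medulla 3, 5 and 3 of the 10 were called higher than sham at 6, 24 and 120 h and 0 lower, against 19.7%, 19.8% and 9.41% of all genes higher. The higher calls were 2, 2 and 0 without sham medulla replicates 1 and 3, against 6.2%, 5.56% and 1.38%. Of 7 mesangial genes 4 were called higher in medulla than in cortex and 0 lower over the 4 states, against 19.3% and 17.2% of all genes. The median was 0.4, and 0.38 without those 2 arrays. Des, the desmin gene, rose in cortex at 6 and 24 h (1.30 and 1.18 ± 0.23, adjusted p = 0.000889 and 0.00114). These lists also mark vessels and stroma outside glomeruli.

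Of 5 tested genes of the glomerular basement membrane 2 were called higher in medulla over the 4 states and 0 lower, against 19.3% and 17.2% of all genes. These were Lamb2, the laminin beta gene of that membrane (0.93 ± 0.15, adjusted p = 9.52e-05), and the agrin gene Agrn (0.90 ± 0.14, adjusted p = 5.48e-05). The counts were the same without sham medulla replicates 1 and 3. Col4a3, a collagen IV chain gene, fell in medulla at 6 and 24 h (-1.92 and -1.48 ± 0.47, adjusted p = 0.00415 and 0.0217). Without sham medulla replicates 1 and 3 the 24 h call was lost (-2.12 and -1.68 ± 0.66, adjusted p = 0.0461 and 0.116). Of 6 parietal epithelium genes 2 were called higher in injured cortex over the 3 times and 0 lower, against 13.1% and 12.6% of all genes. These were Cd24 (0.92 ± 0.29, adjusted p = 0.0273) and Cd44, an adhesion receptor gene (1.81 ± 0.35, adjusted p = 0.00093), both of which injured tubules and leukocytes can express. Leukocyte markers moved beside them, with 3 of 6 called higher in injured cortex against 13.1% of all genes, and their part in these values was not tested. Of 4 mesothelial genes, listed because mesothelium also makes Wt1 and podocalyxin, 2 were called higher in medulla over the 4 states, against 19.3% of all genes. Without sham medulla replicates 1 and 3 the median of these 4 genes over the 4 states was 0.7. Their median over the 3 injured times was 0.17 in cortex and 0.41 in medulla, and in medulla -0.38 without those 2 arrays.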

How the data were processed

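RNA of cortex and medulla had been labelled with biotin and hybridised to bead arrays, per the labels. The deposited intensity values are not normalized, per the file headers. The authors deposited a detection value beside each, a fraction that rose with intensity, and 1 minus that value served as detection p. The authors' series table holds log2 values, with background correction not given in the sources used here.

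Intensities were normalized with neqc of limma 3.58.1 in R 4.3.3 (normexp from the detection p, offset 16, quantile, log2). The filter kept 14390 of 22523 probes, those detected (p under 0.05) on 3 or more arrays. The annotation gave 1 symbol for 13793 probes and none for 8730. One model with 8 group means was fitted (lmFit, eBayes, 16 residual degrees of freedom). P-values were adjusted within each comparison by Benjamini-Hochberg. An exact test of 3 against 3 arrays cannot go under 0.1. Tests were run on simulated data first. Array number and signal over background limit precision.

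Members and gene lists were chosen with earlier results of these data known. Members were always named, as were the 3 genes most like each member by Pearson correlation. Other listed genes were named only where called, and not every called gene was named. List genes used the probe with the highest mean, and list sizes count older symbols. Averages over states, the fit without sham medulla replicates 1 and 3, and the block at 24 h alone were chosen after seeing the data.

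Same-numbered cortex and medulla arrays deviated together in 3 of 12 pairs (correlation over 0.1), all 3 at 24 h (0.398, 0.262 and 0.356). Among all 84 same-numbered pairs of arrays, 30 were over 0.1, with a highest of 0.403, so these values do not show shared animals. The labels give no shared animal, and the main fit paired no arrays. The replicate numbers entered only alternative fits with a replicate block, over all groups and at 24 h alone. Alternatives were other background corrections and scalings, the authors' log2 values, other filters, array weights, a replicate block, fewer groups and each array left out.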

Additional observations from a re-analysis of the deposited data

How the results depend on the processing

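Of 1480 member differences recomputed under the alternatives, 1367 kept their direction and call, 43 lost a call, 22 gained one and 48 no longer had the same sign. Of these 48, 2 had been called: Ptpro in medulla at 6 h (0.241) and over the 3 times (0.413), both without sham medulla replicates 1 and 3. The others were called neither before nor after. In the fit without those 2 arrays these were Wt1 in medulla at 24 and 120 h (0.026 and 0.006), Ptpro in medulla at 24 and 120 h (0.347 and 0.652), the response difference of Wt1 at 6 h (0.733) and that of Ptpro at 6, 24 and 120 h (0.548, 0.369 and 1.004). Median scaling turned Podxl (0.052) and Ptpro (0.20) in cortex at 24 h against sham and Nphs1 from 6 to 24 h in cortex (0.109). Array weights turned Ptpro in cortex at 24 h (0.185), Nphs1 from 24 to 120 h in cortex (0.089), Wt1 from 24 to 120 h in medulla (0.035) and the response differences of Podxl at 6 and 120 h (-0.128 and -0.389) and of Wt1 at 6 h (0.075). With 1 array left out, Ptpro in cortex at 24 h ran from -0.134 to 0.176 and Podxl in medulla at 24 h from -0.107 to 0.308. Likewise the response differences ran from -0.147 to 0.264 and -0.148 to 0.257 for Podxl at 6 and 120 h, from -0.775 to 0.194 and -0.231 to 0.738 for Wt1 at 6 and 120 h, and from -0.587 to 0.218 for Ptpro at 120 h. Between times, the ranges were -0.236 to 0.20 for Nphs1 from 6 to 24 h in cortex, and from 24 to 120 h -0.351 to 0.241 for Nphs1 in cortex, -0.049 to 0.720 for Wt1 in cortex and -0.137 to 0.075 for Wt1 in medulla. The count of 5 member calls in medulla against sham became 3 with no filter on dim probes, 8 with array weights, 2 with only the groups compared and 2 without sham medulla replicates 1 and 3. Leaving out 1 array gave 3 to 9 there, 1 to 2 in cortex and 0 to 4 for the difference of responses. The count of 1 in cortex became 2 with array weights and with only the groups compared. Array weights gave 2 calls for the difference of responses and 1 between successive times. The latter was Podxl from 24 to 120 h in medulla (-0.845, adjusted p = 0.00876). With array weights Podxl in medulla at 120 h was also called lower than sham (-0.82, adjusted p = 0.0082) and lower than cortex (-0.66, adjusted p = 0.0414). With only the groups compared, Nphs1 and Ptpro in sham medulla against sham cortex (adjusted p = 0.389 and 0.356) and Nphs1 at 120 h in medulla (0.0658) lost their calls. For these the cause was not tested. The replicate block gave 1, 5, 9, 0, 0 and 8 calls in cortex, medulla, between regions, for responses, between times and for averages, the same counts as without it. With the replicate block in the 24 h groups alone Nphs1 (-4.70, adjusted p = 0.000303) and Ptpro (-2.28, adjusted p = 0.00223) were called and Podxl and Wt1 were not (adjusted p = 0.245 and 0.215), so it changed no call. Over all 84 same-numbered pairs of arrays the correlation ran from -0.473 to 0.403. Wt1, Synpo and, in injured medulla, Nphs1 lie near background, where fitted differences depend on the background correction.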
